A study of Mus musculus with 5 samples.

Results

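Nordihydroguaiaretic acid (NDGA) is a plant lignan that blocks lipoxygenases and scavenges oxidants, and the series concerns its action on fat handling in the liver. The comparison described here is NDGA added to a high-fat diet against the high-fat diet alone in wild-type (WT) mice. It rests on 2 of the 5 arrays of the series, taken by their titles: the array of WT mice on the high-fat diet with NDGA and the array of WT mice on the high-fat diet. Both groups were C57BL/6 mice kept on their diet for 16 weeks, and NDGA was given at 2.5 g per kg of food. The other arrays came from WT mice on chow, from ob/ob mice on chow, and from ob/ob mice on chow with the same dose of NDGA. The ob/ob mouse has no working leptin, the satiety hormone made by fat cells. The labels used here state neither age nor sex.

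Each group was measured on 1 array. RNA of 3 animals per group was used, and the labels do not say whether it was pooled. The comparison therefore has no replicates, no test and no error between mice, and every value is the difference between 2 arrays. The 1 measure of spread is between probes on the same 2 arrays, not between arrays or mice. It comes from 839 genes with 2 bright probes. The SD between probes of the same gene, in the difference between the arrays, was 0.34 on the log2 scale. Across these genes the differences of the 2 probes correlated at only 0.37. Most differences were no larger than the SD of 0.34, since 53.0% of the expressed genes lay within it.

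On a high-fat diet the liver stores fat, and macrophages and matrix-making stellate cells gain in number or activity. Secretory proteins such as albumin are folded in the endoplasmic reticulum (ER) by chaperones and disulfide isomerases, which the unfolded protein response adjusts to the load. PPAR-alpha is the nuclear receptor that switches on fatty acid oxidation and the CYP4A hydroxylases, and SREBP and ChREBP switch on the synthesis of fat.

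Values are probe intensities brought to a common distribution (quantile normalization), and a difference is that of log2(intensity + 50), NDGA minus no NDGA. Each gene took the value of its brightest probe, by the mean over the 5 arrays, and was called expressed when the mean of both arrays reached the median over genes, an intensity of about 91.3. Of 16637 genes on the array, 8319 were expressed. With NDGA, 76 of them (0.914%) were at least 2-fold higher and 130 (1.56%) at least 2-fold lower. Over all genes on the array, dim ones included, these shares were 0.493% and 0.829%. The median difference was -0.03 and the middle 90% of genes lay between -0.73 and 0.68. The split depended on the scaling: without normalization 93 were higher and 92 lower, and with each array scaled to a common median 48 were higher and 244 lower. The latter scaling placed the median of all genes at -0.18. Of the 76 and 130 genes, 48 and 88 passed 2-fold under quantile normalization and under both of these scalings and a loess fit.

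**Figure D1:**
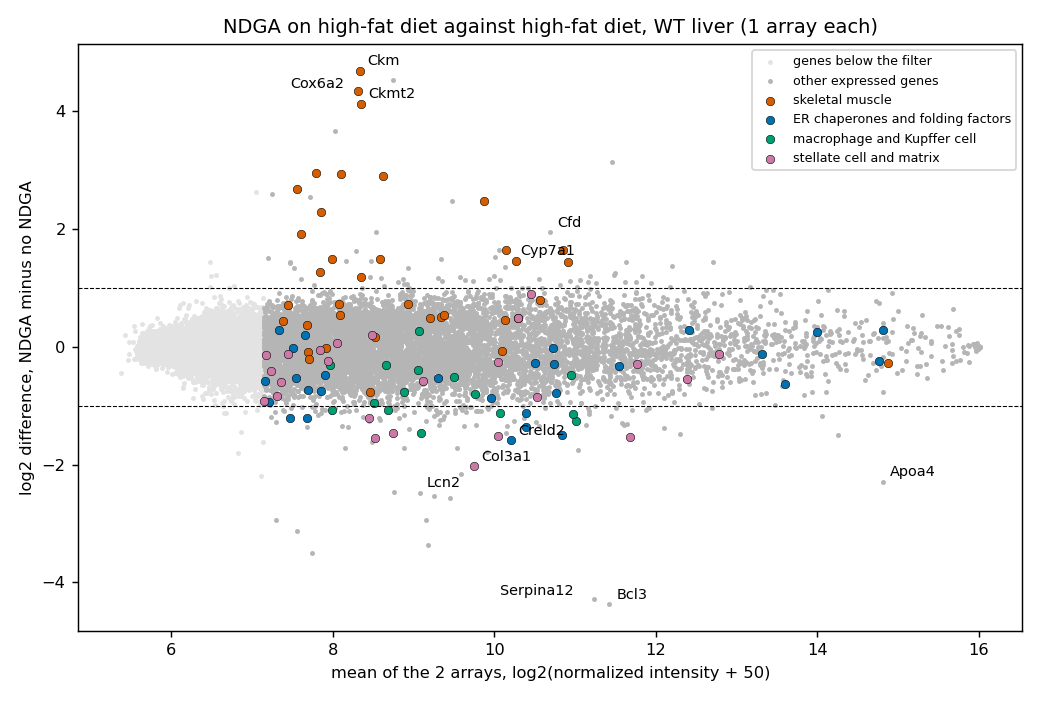
Each point is a gene; the horizontal axis is the mean log2(normalized intensity + 50) of the 2 arrays and the vertical axis the log2 difference, NDGA on high-fat diet minus high-fat diet. Dashed lines mark 2-fold; 18 of the 37 skeletal muscle genes (orange) lie above the upper line, up to 4.69 for Ckm, and others lie near or below 0, while most marked ER, macrophage and stellate cell genes lie below 0.

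Hepatocyte genes marked both arrays as liver. Alb and Ahsg, which encode albumin and fetuin-A, were saturated on both arrays, and 20 of 23 hepatocyte genes were expressed with a median of -0.23. Of these, Asgr2, a subunit of the receptor that clears asialoglycoproteins, was at least 2-fold lower (-1.08), and Cebpa, a hepatocyte transcription factor, was at -0.81. A dim probe did not show a silent gene: Gapdh and Rplp0, which every cell uses, read at most 26.8 and 9.25 on the 5 arrays. Of 12 housekeeping genes on the array 9 were expressed, with a median of -0.30, and 0 passed 2-fold; the list medians below stand beside this value as well as that of all genes. Olfactory receptor genes, which have no known use in liver, give a level for probes without a target. Of 689 named, 168 passed the filter with a median of 0.47 (0.12 over all 689), 4 at least 2-fold higher and 0 lower. Their 90th percentile was an intensity of 281 over all 689, above the filter's 91.3. Hspa5, Pdia6, Ccl4, Cpt1a, Apcs and Nr0b2, described below, read under that level on all 5 arrays. Differences of such dim genes are less certain. Positive list medians below, such as those of lymphocyte, neutrophil, heart and muscle contractile genes, stand beside the olfactory receptor median of 0.47. Single intensities below are in the order WT chow, WT high-fat, WT high-fat NDGA, ob/ob chow, ob/ob chow NDGA.

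Most genes of the ER folding machinery were lower with NDGA. Of 28 expressed chaperones and folding factors, 6 were at least 2-fold lower and 0 higher, with a median of -0.53 and 23 of 28 below 0. Over all 35 on the array, dim probes included, the median was -0.32, with 7 at least 2-fold lower. Relative to all genes, the median of the 28 was -0.50. With the filter raised to the 75th percentile of genes it was -0.30, and with the olfactory receptor filter -0.29, over 17 members each. Housekeeping genes were at -0.14 and -0.27 with the same filters. Creld2, a secreted factor that assists folding, read 2420, 1984, 630, 922 and 980, a difference of -1.58. Ero1b, an oxidase that feeds disulfide bond formation, read 3240, 3017, 1035, 2683 and 2143 (-1.50). Sdf2l1, a partner of the chaperone BiP, read 2780, 2100, 791, 1287 and 776 (-1.35). For Creld2 and Ero1b the NDGA array was the lowest of the 5, and WT chow read above WT high-fat, so the NDGA array lay below lean chow as well. For Sdf2l1 the lowest array was that of ob/ob with NDGA.

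The protein disulfide isomerases Pdia4 (132, 261, 85.3, 75.5 and 340) and Pdia6 (110, 219, 67.3, 83.6 and 198) each differed by -1.20, and were high on the high-fat array and on the ob/ob NDGA array. Dnajb9, a co-chaperone of BiP, read 1005, 1944, 862, 1151 and 1668 (-1.13). Hspa5, which encodes BiP, the master chaperone of the ER, read 180, 154, 57.2, 142 and 120 (-0.93), lowest with NDGA on high-fat diet. Further down the list were Txndc5 (-0.86), Dnajb11 (-0.78), Ostc (-0.76), Manf (-0.73), Pdia3 (-0.63) and Hsp90b1 (-0.49), which make or assist foldases, co-chaperones and the glycosylation complex. Xbp1, a transcription factor of the unfolded protein response, was at 0.29, and at -0.12 with the common median. Whether its probe reads the spliced or the unspliced form was not examined.

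Genes of the integrated stress response, the branch that runs through translation control, were mixed: 0 of 10 expressed members passed 2-fold in either direction, with a median of -0.08. Eif2ak3, the ER stress kinase PERK, was at -0.87, Atf4 and Atf5, its downstream transcription factors, at -0.78 each, and Ppp1r15a, which ends the response, at 0.43. Outside the lists, and chosen after their values were seen, genes of ER import and early secretion were also at least 2-fold lower: Ddost (-1.18), a subunit of the oligosaccharyl transferase, Tram1 (-1.18), a part of the translocon, Serpinh1 (-1.08), the collagen chaperone, and Tmed9 (-1.07), a cargo receptor.

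The ER stress response element, CCAAT followed after 9 bases of any kind by CCACG, is the sequence through which ATF6 and XBP1 act on chaperone promoters. It was searched on both strands in the 250 bases before each start site of the RefSeq promoter table (GRCm38.p6). It occurs in 35 of 27025 genes (0.130%) and in 10 of the 28 ER genes that have a promoter there (35.7%). The promoters of 4 of these genes, chosen from the largest differences and the best known chaperones, are shown on the gene's own strand, with the fixed letters of the element in capitals (ATTGG and CGTGG where it lies on the other strand).
Creld2: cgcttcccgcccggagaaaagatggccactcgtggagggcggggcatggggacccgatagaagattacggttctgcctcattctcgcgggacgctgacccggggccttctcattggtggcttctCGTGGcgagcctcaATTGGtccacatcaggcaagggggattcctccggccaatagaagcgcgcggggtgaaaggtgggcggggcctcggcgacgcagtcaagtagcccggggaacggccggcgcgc
Pdia6: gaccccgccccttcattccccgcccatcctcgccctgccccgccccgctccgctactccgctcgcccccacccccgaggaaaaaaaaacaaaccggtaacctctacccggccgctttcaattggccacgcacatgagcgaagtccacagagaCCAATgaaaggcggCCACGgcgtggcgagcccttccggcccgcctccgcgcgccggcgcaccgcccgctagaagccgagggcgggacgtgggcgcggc
Hspa5: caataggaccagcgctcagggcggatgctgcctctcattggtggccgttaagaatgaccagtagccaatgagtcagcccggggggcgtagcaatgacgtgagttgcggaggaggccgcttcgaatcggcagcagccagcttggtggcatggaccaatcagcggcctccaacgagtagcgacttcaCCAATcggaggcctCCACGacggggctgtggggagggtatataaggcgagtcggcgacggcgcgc
Hsp90b1: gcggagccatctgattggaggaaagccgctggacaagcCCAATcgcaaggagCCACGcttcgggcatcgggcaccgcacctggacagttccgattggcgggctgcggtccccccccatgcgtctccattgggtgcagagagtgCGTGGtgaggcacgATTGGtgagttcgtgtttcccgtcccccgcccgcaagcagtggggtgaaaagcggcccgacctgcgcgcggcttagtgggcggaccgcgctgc
In Creld2 (chr15:88819396-88819645, plus strand) the element lies 126 to 108 bases before the start site, and in Pdia6 (chr12:17266339-17266588, plus strand) 98 to 80 bases. In Hspa5 (chr2:34771840-34772089, plus strand) it lies 65 to 47 bases before the start, and in Hsp90b1 (chr10:86705445-86705694, minus strand) it occurs at 212 to 194 and at 107 to 89 bases. Of the ER genes with the element, 7 were expressed; all 7 of these were below 0, 3 were at least 2-fold lower, and their median was -0.93. Of the 16 expressed ER genes with a promoter and no match, 12 were below 0, 3 were at least 2-fold lower, and the median was -0.42. Among 4 expressed genes outside the list that hold the element, Acacb was at 0.12, Adcy3 at 0.08, Ptgdr2 at 0.45 and Alg12 at -0.67. These counts describe letters in a window, and binding was not measured.

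**Figure D2:**
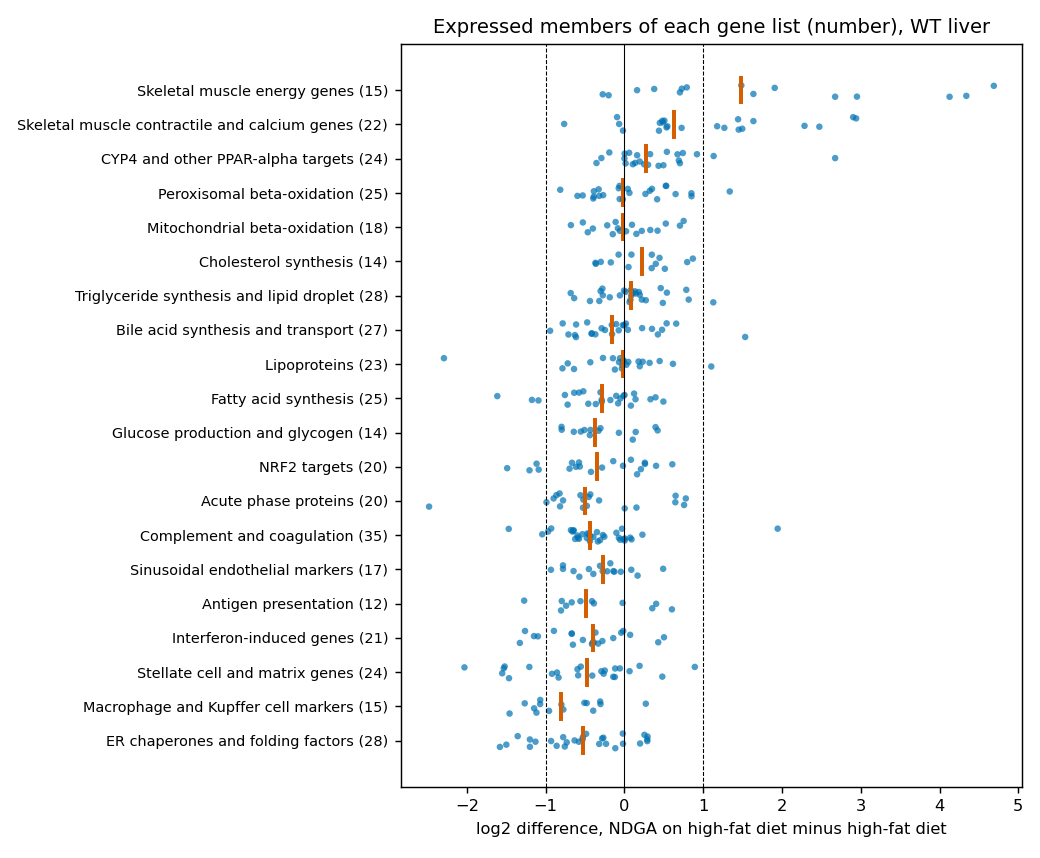
Each dot is an expressed gene of the list named at the left (number of expressed members in brackets), placed by its log2 difference, NDGA on high-fat diet minus high-fat diet; the orange bar is the list's median and dashed lines mark 2-fold. Macrophage (-0.80) and ER (-0.53) lists sit left of 0 and both muscle lists right of it.

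Markers of macrophages were lower with NDGA. Of 15 expressed, 6 passed 2-fold downward and 0 upward (median -0.80), and 14 of 15 were below 0. Over all 25 on the array the median was -0.65 with 6 at least 2-fold lower. Mpeg1, a pore-forming protein of phagocytes, read 260, 853, 279, 413 and 893 (-1.46). Adgre1, the F4/80 antigen, read 105, 319, 126, 207 and 497 (-1.07, or -0.95 without normalization). Both were near their chow level on the NDGA array and high on the high-fat and ob/ob NDGA arrays. C1qb, a chain of the complement starter C1q, read 1650, 2934, 1298, 4201 and 3290 (-1.15). Spp1, the matrix protein osteopontin, which bile duct cells also make, was at -1.27. Csf1r, the receptor for the growth factor of macrophages, was at -1.12 and Cd68, a lysosomal marker, at -1.07, but as means of their probes they were at -0.55 and -0.48.

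Among the other members of the list, Clec4f was at -0.51, Vsig4 at -0.48, Timd4 at -0.31 and Marco at -0.30; all 4 are known from Kupffer cells, the resident macrophages of the liver. With the mean of all probes the list's median was -0.55. The summed intensity of the 25 markers was 10269, 16531, 8776, 21117 and 20767. The NDGA array had the lowest sum, below WT chow. In bulk tissue, fewer cells of a type and less RNA per cell cannot be told apart. Further macrophage genes, chosen after their values were seen, were lower: Plac8 at -1.36, Fcgr3, an Fc receptor, at -1.35 and Lgals3, the lectin galectin-3, at -1.35.

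Chemokines had 2 of 12 expressed members at least 2-fold lower and 0 higher, with a median of -0.51. Over all 23 on the array, dim probes included, the median was -0.13. Ccl4, which attracts monocytes, read 58.9, 195, 51.2, 190 and 141 (-1.27), and Cxcl1, which attracts neutrophils, read 642, 1821, 731, 1255 and 955 (-1.26). Tnf, the cytokine, went the other way at 0.87, reading 296, 194, 396, 333 and 259. Of other blood cells, lymphocyte markers had a median of 0.29 over 4 expressed (0.06 over all 15 on the array). Neutrophil markers had 0.29 over 5 (0.06 over all 11), with 0 of either past 2-fold. Both medians lay below the 0.47 of olfactory receptor genes past the filter.

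Matrix and stellate cell genes were lower as well: 6 of 24 expressed members passed 2-fold downward and 0 upward (median -0.48). Over all 32 on the array the median was -0.26, and with the mean of probes it was -0.27. Vim, the filament protein of mesenchymal cells, read 519, 1738, 573, 1181 and 1873 (-1.52). Col1a2, a chain of type I collagen, read 86.2, 664, 209, 354 and 489 (-1.46). Col3a1, type III collagen, read 219, 1693, 377, 682 and 1173 (-2.03), although its other probe differed by only -0.15. For Vim, Col1a2 and Col3a1 the high-fat array stood above both other WT arrays.

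Anxa2, a membrane-binding annexin, was at -1.53, Sparc, a matrix glycoprotein, at -1.55 and Col4a1, of basement membranes, at -1.21. Timp1, an inhibitor of matrix proteases, was at -0.84. Acta2, the actin of activated stellate cells, was at 0.89 by its brightest probe and at 0.17 as the mean of its probes. The stellate cell marker Des, which is also in the muscle contractile list, was at 0.48. Lrat, the enzyme of vitamin A storage, was at -0.41. Of 7 expressed collagen genes in a set of 10 fibrillar, basement membrane and type VI chains, 6 were below 0 and 3 at least 2-fold lower. The summed intensity of the stellate list was 21080, 35936, 24883, 35352 and 38162. Sinusoidal endothelial markers had 0 of 17 expressed past 2-fold and a median of -0.28; Lyve1, a hyaluronan receptor, was at -0.93 and the scavenger receptor Stab2 at -0.78. The part of cell numbers in the ER, interferon and acute phase differences was not tested.

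**Figure D3:**
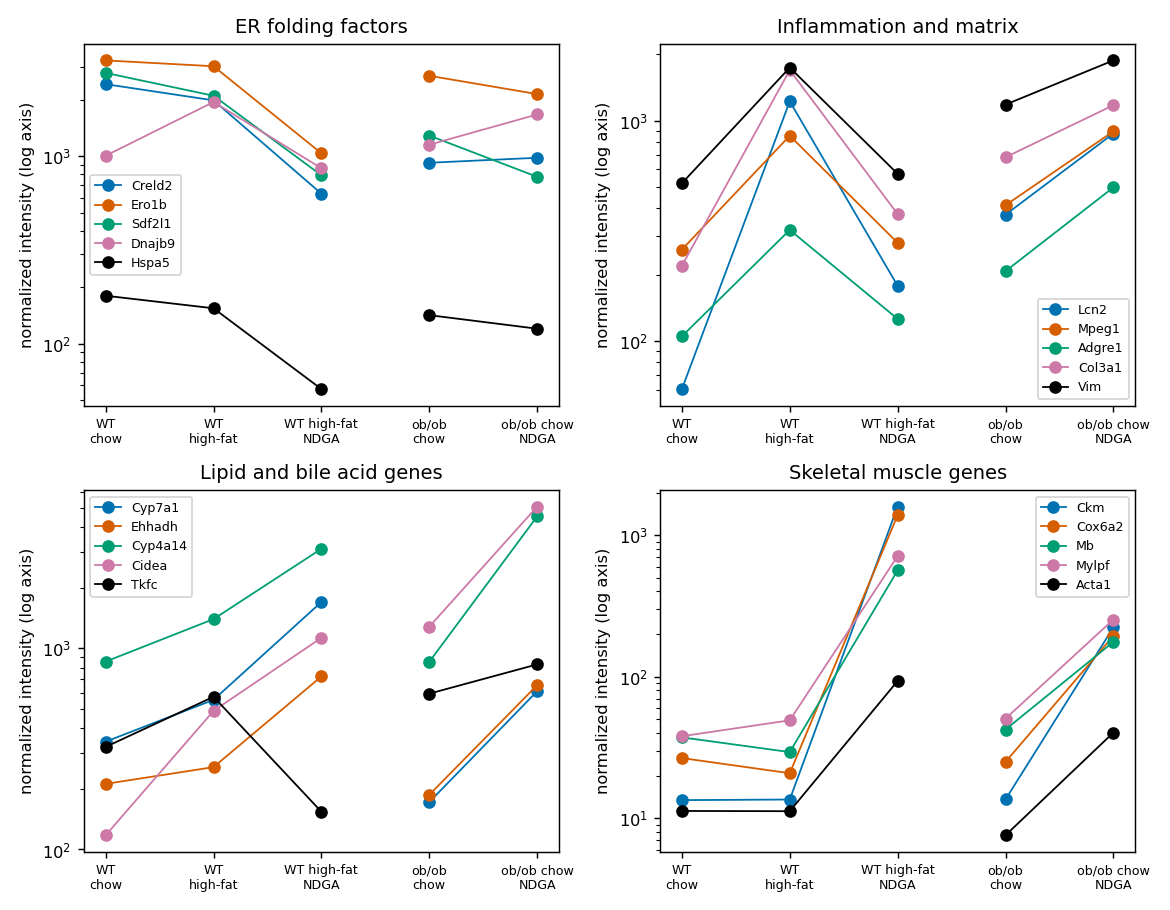
Normalized intensity (log axis) of named genes on the 5 arrays, 1 array per group and no error; lines join arrays of WT mice and of ob/ob mice. Lcn2, Mpeg1, Adgre1, Col3a1 and Vim peak on the high-fat array among the WT arrays, Creld2 and Hspa5 are lowest with NDGA, and Ckm, Cox6a2 and Mb stand out on the WT high-fat NDGA array.

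Interferon-induced genes had 4 of 21 expressed members at least 2-fold lower and 0 higher, with a median of -0.40 and 18 of 21 below 0; over all 30 on the array the median was -0.38. Gbp3, a guanylate-binding protein, read 461, 958, 352, 588 and 461 (-1.33). Igtp, an immunity-related GTPase, read 248, 489, 175, 212 and 346 (-1.26). Isg15, a ubiquitin-like modifier, read 418, 702, 302, 361 and 336 (-1.10), Ifi27 was at -1.15 and Rsad2, the antiviral enzyme viperin, at -0.89. For Gbp3, Igtp and Isg15 the high-fat array was the highest of the 5 and the NDGA array the lowest. H2-Aa, a class II antigen-presenting chain, was at -1.27, the only 1 of 12 expressed antigen presentation genes past 2-fold (list median -0.48).

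The core of the interferon-stimulated response element, GAAA, any 2 bases and GAAA again, on either strand, occurs in the same 250-base window of 936 genes (3.46%) and of 13 of the 23 interferon genes with a promoter (56.5%). The promoters of Gbp3 and Isg15 carry overlapping copies close to the start site, with the GAAA letters (TTTC on the other strand) in capitals.
Gbp3: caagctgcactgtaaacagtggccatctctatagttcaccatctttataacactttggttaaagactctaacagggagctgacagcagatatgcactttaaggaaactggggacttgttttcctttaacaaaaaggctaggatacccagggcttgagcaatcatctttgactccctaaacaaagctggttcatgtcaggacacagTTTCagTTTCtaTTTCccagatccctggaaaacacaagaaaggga
Isg15: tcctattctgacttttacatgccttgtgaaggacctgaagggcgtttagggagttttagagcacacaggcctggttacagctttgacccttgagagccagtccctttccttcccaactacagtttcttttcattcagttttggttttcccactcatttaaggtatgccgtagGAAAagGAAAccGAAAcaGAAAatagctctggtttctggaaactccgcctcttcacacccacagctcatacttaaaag
In Gbp3 (chr3:142559794-142560043, plus strand) the copies begin 45 and 39 bases before the start site, and in Isg15 (chr4:156200819-156201068, minus strand) they begin 78, 72 and 66 bases before it. Of 8 expressed interferon genes with the core, 7 were below 0, 3 were at least 2-fold lower and the median was -0.71. Of 7 without it, all 7 were below 0, 0 were at least 2-fold lower and the median was -0.40. Another 193 expressed genes outside the list hold the core; their median was -0.01, with 4 at least 2-fold lower.

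Acute phase proteins, which the liver secretes in inflammation, had a median of -0.50 over 20 expressed, with 14 below 0. Lcn2, an iron-trapping lipocalin, was the only 1 past 2-fold, reading 60.6, 1221, 178, 374 and 873 (-2.48). With 50 added to both readings, it was 5.58-fold lower with NDGA than on the high-fat diet alone, and it stayed above lean chow. Cp, the copper protein ceruloplasmin, was at -0.99 (-0.59 as the mean of its probes), Itih3 at -0.90, Socs3, which dampens cytokine signals, at -0.86, Orm2 at -0.82 and the haemoglobin scavenger Hp at -0.56. Other members went the other way. Apcs, the serum amyloid P component, read 58.3, 62.9, 144, 52.1 and 143 (0.78), higher with NDGA in both genotypes. Of the fibrinogen chains, Fgg read 1344, 538, 944, 1030 and 740 (0.76) and Fgb was at 0.65, both between the high-fat and chow levels. Mt1, a metal-binding protein, was at 0.65 with its probe saturated on the NDGA array, so it was at least 1.57-fold higher with 50 added to both readings.

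Complement and coagulation genes had a median of -0.43 over 35 expressed, with 2 at least 2-fold lower: C9, of the membrane attack complex (1219, 1838, 633, 648 and 1400, -1.47), and C1s1, a protease of C1 (-1.04). Cfd, the protease adipsin, best known from fat cells, was at least 2-fold higher and read 274, 789, 3181, 21.9 and 113 (1.95). Of fat cell markers on the array, 9 of 15 were expressed, with a median of 0.49 (0.12 over all 15), and 2 were at least 2-fold higher, Cfd and Cidea. The defining fat cell markers Adipoq, Plin1 and Fabp4 read at most 63.2, 17.7 and 7.90 on any array, and Lep at most 17.5. The summed intensity of the 15 markers was 11026, 17891, 20178, 17609 and 29994.

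Oxidant defence genes differed in both directions with NDGA. Of 20 expressed targets of NRF2, the regulator of that defence, 4 passed 2-fold downward and 0 upward, with a median of -0.35 (-0.22 over all 26 on the array) and 7 above 0. Osgin1, an oxidative stress-induced growth inhibitor, read 12437, 8397, 2961, 12271 and 2391 (-1.49), and was low on both arrays with NDGA. Gstm3, a glutathione transferase (-1.20), Srxn1, the sulfiredoxin (-1.12), and Hmox1, the heme oxygenase (-1.09), were the others; each was higher on the high-fat array than on either other WT array. The highest expressed target was Slc7a11, the cystine transporter, at 0.61 (0.27 as the mean of its probes). Nqo1 and Gclc, standard members of the group, were near background on all arrays, so they bear no difference. Of genes of lipoxygenase and eicosanoid metabolism, 0 of 18 expressed passed 2-fold; Alox5, the 5-lipoxygenase, was at 0.39 and its partner Alox5ap at -0.66.

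PPAR-alpha targets held a few differences past 2-fold. Ppara itself read 682, 854, 673, 578 and 643, a difference of -0.32. Of 24 expressed CYP4 and other targets, 2 passed 2-fold upward and 0 downward, with a median of 0.28 that was -0.10 with the common median. Cyp4a14, a fatty acid omega-hydroxylase, read 859, 1396, 3121, 856 and 4522 (1.13, or 0.89 with the common median). Its NDGA array was the higher in both genotypes. Fabp3 was the other, and is also a muscle gene. Slc27a1, a fatty acid transporter, was at 0.92, Fabp1, the liver fatty acid-binding protein, at 0.74 and Vnn1, a pantetheinase, at 0.69. Cyp4a10 was saturated on both arrays and bears no difference.

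In peroxisomal oxidation, Ehhadh, the bifunctional enzyme, read 212, 257, 724, 187 and 655 (1.34) and was the only 1 of 25 expressed past 2-fold; the list's median was -0.02. Acot3, a thioesterase, was at 0.85, Phyh, of alpha-oxidation, at 0.85 and the coenzyme A hydrolase Nudt7 at -0.81. In mitochondrial oxidation 0 of 18 expressed passed 2-fold, with a median of -0.02: Cpt1a, the entry step, read 75.4, 64.3, 142, 49.6 and 92.8 (0.75) and Hadha, of the trifunctional protein, was at 0.70, while Acads, for short chains, was at -0.68. Oxct1, which burns ketone bodies and is sparse in hepatocytes, read 503, 528, 1197, 838 and 666 (1.11, or 0.94 with the common median).

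In the list of fatty acid synthesis, which also holds enzymes of fructose use, a few genes were lower with NDGA. Of 25 expressed members, 3 passed 2-fold downward and 0 upward: the fructose enzymes Tkfc and Khk, and Acly. The median of -0.29 was near the -0.30 of housekeeping genes. Relative to all genes it was -0.255, or -0.07 with the 75th percentile filter and -0.11 with the olfactory receptor filter. The summed intensity of the list, to which bright probes contribute most, was 158371, 163511, 172159, 178757 and 203911. That sum was not lower with NDGA. The mean log2 level of the expressed members was lower, at 10.52 against 10.83 on the high-fat array, and 18 of 25 were below 0. Tkfc, which phosphorylates the glyceraldehyde made from fructose, read 323, 574, 154, 595 and 832 (-1.61). Khk, the fructokinase upstream of it, read 740, 950, 393, 1316 and 1347 (-1.17). Acly, the citrate lyase, read 271, 360, 142, 311 and 732 (-1.09, or -0.98 without normalization). All 3 were lowest on the WT high-fat NDGA array. Mlxipl, the carbohydrate sensor ChREBP, was at -0.76, Fasn, the fatty acid synthase, at -0.72 and Acaca, which makes its substrate, at -0.52. Scd1 was saturated on both arrays.

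For lipid droplets, Cidea, which enlarges them, read 118, 488, 1127, 1279 and 5057 (1.13, or 0.97 with the common median), while its relative Cidec was at 0.07. Pnpla2, the triglyceride lipase, was at 0.82 and Lpin1, a phosphatidate phosphatase, at 0.79; Dgat2, the last step of triglyceride synthesis, was at -0.68. Cholesterol synthesis genes had 0 of 14 expressed past 2-fold and a median of 0.22 (-0.03 with the common median), with Idi1 at 0.87. Insig2, which holds back SREBP, read 7398, 15980, 8023, 10487 and 15742 (-0.99), near its chow level with NDGA. In glucose production and glycogen 0 of 14 expressed passed 2-fold and the median was -0.38 (-0.19 over all 20 on the array); Ppp1r3b, a glycogen-targeting subunit, and Ugp2, which makes UDP-glucose, were at -0.80 each.

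Of 27 expressed bile acid genes, Cyp7a1 alone passed 2-fold. It encodes the enzyme that limits the rate at which bile acids are made, and read 343, 554, 1698, 172 and 612 (1.53), highest on the WT high-fat NDGA array. Nr0b2, the repressor SHP, read 78.0, 173, 79.6, 112 and 115 (-0.78), and Abcb4, the phospholipid exporter, was at -0.94. Among lipoproteins, Pltp, the phospholipid transfer protein, read 3330, 1513, 3305, 1572 and 3312 (1.10, or 0.86 with the common median), at its chow level with NDGA. Apoa4 read 18800, 63459, 12929, 64393 and 63459, with its probe saturated on the high-fat array, so with 50 added to both readings it was at least 4.89-fold lower with NDGA. Apoc3, which slows lipoprotein clearance, was at -0.79 and Mttp, which loads lipid on apolipoprotein B, at -0.64. Cyp1a2, which oxidises caffeine and many drugs, read 26502, 32819, 11641, 18333 and 15569 (-1.49), and Cyp2d9, a male-biased P450, was at -1.33.

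Some of the lowest genes were on probes bright on the high-fat array alone. Bcl3, an NF-kB cofactor, read 724, 12392, 553, 790 and 611 (-4.37), and Plau, the urokinase, read 95.5, 1797, 130, 115 and 84.7 (-3.36). Of the 15 lowest genes, 7 had a probe whose high-fat reading exceeded that of each remaining array by 4-fold or more, with 50 added to every reading. Serpina12, the adipokine vaspin, was different: it read 7210, 10572, 499, 5968 and 3330 (-4.27), bright on every array but the NDGA one, although its other probe differed by -0.05. Usp37, a ubiquitin protease, was at -3.50, and at -1.70 as the mean of its probes. Also among the 15 lowest were B3galt6 (-3.12, or -1.54 as the mean of its probes), Vps72 (-2.945), Fam83h (-2.94) and Vps35 (-2.57). The rest were Dlc1 (-2.54, or -0.90 as the mean of its probes), Mmd2 (-2.47), Utp25 (-2.15, or -0.82) and Slc17a4 (-1.79), with Lcn2, Apoa4 and Col3a1 given above.

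Skeletal muscle genes led the list of higher genes. Of 68 genes of both muscle lists on the array, 37 were expressed and 18 of these at least 2-fold higher, 0 lower, so that they made up 23.7% of the 76 higher genes. Some passed the filter only through the NDGA array; over all 68, with no filter, 21 passed 2-fold upward. Ckm, the creatine kinase of muscle, read 13.4, 13.6, 1589, 13.6 and 223 (4.69). Cox6a2, the muscle form of a cytochrome oxidase subunit, read 1384 with NDGA on high-fat diet, 194 with NDGA in ob/ob and 20.8 to 26.6 on the arrays without it (4.34). Ckmt2, the mitochondrial creatine kinase of muscle, read 23.8, 27.7, 1308, 23.8 and 178 (4.13). All 3 were near background on the arrays without NDGA and read higher on both with it, more in WT. Their ob/ob NDGA readings lay under the olfactory receptor level of 281, and they did not pass the filter in ob/ob. Of 30 muscle genes expressed in ob/ob, 3 were at least 2-fold higher with NDGA, beside 6.77% of all expressed genes. Their median there was 0.12, and that of the contractile list was -0.25, with 1 of 20 at least 2-fold higher.

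Mb, the oxygen store myoglobin, read 37.3, 29.4, 564, 42.3 and 176 (2.95), and Mylpf, a fast myosin light chain, read 38.0, 49.2, 712, 50.5 and 253 (2.94). Tnnc2, the fast troponin C, read 952, 347, 2154, 334 and 488 (2.47), and so was present on every array. Fabp3, the heart and muscle fatty acid-binding protein, was at 2.67, Myl3, a slow light chain, at 2.29, Pgam2, the muscle phosphoglycerate mutase, at 1.91, and Pygm, the muscle glycogen phosphorylase, at 1.64. Ryr1, the calcium release channel, was at 2.90 by its brightest probe and 1.05 as the mean of its probes.

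Other defining muscle genes were dim, or were not higher. Acta1, the skeletal actin, read 11.3, 11.2, 93.3, 7.59 and 40.3 (1.23) and Atp2a1, the calcium pump of fast fibres, read 12.9, 9.18, 86.0, 8.18 and 25.9 (1.20), so both were more than 2-fold higher but below the filter. Myh4, the fastest myosin, read at most 36.3. Tpm1, a tropomyosin, was at -0.09, and Tnnt3, the fast troponin T, was the lowest expressed member of the contractile list at -0.76. The contractile list had 10 of 22 expressed members at least 2-fold higher, with a median of 0.64 (0.46 over all 46 on the array). The energy list had 8 of 15, with a median of 1.48 (0.54 over all 22). The summed intensity of the contractile list was 11661, 9919, 22086, 11820 and 10699, highest on the WT high-fat NDGA array. That of the energy list was 32579, 36248, 38956, 39458 and 39755, highest on the ob/ob NDGA array. Heart markers had 0 of 4 expressed past 2-fold, with a median of 0.31 (0.08 over all 9 on the array), and Myh6 and Tnnt2 near background. What part RNA of muscle in the sample had in these values was not tested. Without the muscle genes, 58 genes were higher and 130 lower.

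Other genes among the 15 highest had no tie to muscle or fat in the lists: Nip7, a ribosome assembly factor (4.53, or 1.48 as the mean of its probes), Spata2, an adaptor of deubiquitination (3.66), Tmem134 (3.15), Nme6 (2.59), Capg, an actin-capping protein (2.55), and H19, an imprinted noncoding RNA that read 303, 253, 1630, 435 and 298 (2.47). Of the 15 highest genes, muscle ones included, 8 had a probe whose reading on the WT high-fat NDGA array exceeded that of each remaining array by 4-fold or more, again with 50 added to every reading.

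In ob/ob mice on chow, NDGA gave a different balance, with 563 of 8319 expressed genes (6.77%) at least 2-fold higher and 42 (0.505%) lower. The 2 comparisons share no array, but they differ in genotype and diet at once. The ob/ob NDGA array was also the brightest as deposited, with a median intensity of 71.0 against 38.1 to 47.0 on the others. Of 8069 genes expressed in both, 7 were at least 2-fold higher in both, or 11.5% of the 61 higher in WT and 1.31% of the 533 higher in ob/ob. They were Cyp7a1, Ehhadh, Cyp4a14, Cidea, Pltp and the muscle genes Mb and Mylpf. Those lower in both were Osgin1, Id3, an inhibitor of helix-loop-helix factors, and Sdr9c7, a dehydrogenase, 3 genes that made up 2.38% of the 126 lower in WT and 7.89% of the 38 lower in ob/ob. Id3 read 9112, 9450, 4568, 19780 and 8589. Sdr9c7 read 1509, 1300, 359, 795 and 296 (-1.72 in WT, or -0.87 as the mean of its probes).

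Of the lists described, interferon-induced genes (median -0.36 in ob/ob), chemokines (-0.32), antigen presentation (-0.20) and sinusoidal endothelial markers (-0.10) had medians below 0 in both comparisons. So did housekeeping genes (-0.30 in WT and -0.13 in ob/ob) and bile duct markers (-0.04 and -0.33). In ob/ob the ER list had a median of -0.00, the macrophage list 0.06, the stellate list 0.21 and NRF2 targets 0.30. The mitochondrial oxidation list, with a median of -0.02 in WT, had 1.00 in ob/ob. Levels relative to 0 depended on the scaling in ob/ob, where 2580 genes were at least 2-fold higher without normalization. Which of genotype, diet or array brightness goes with this difference cannot be told apart.

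**Figure D4:**
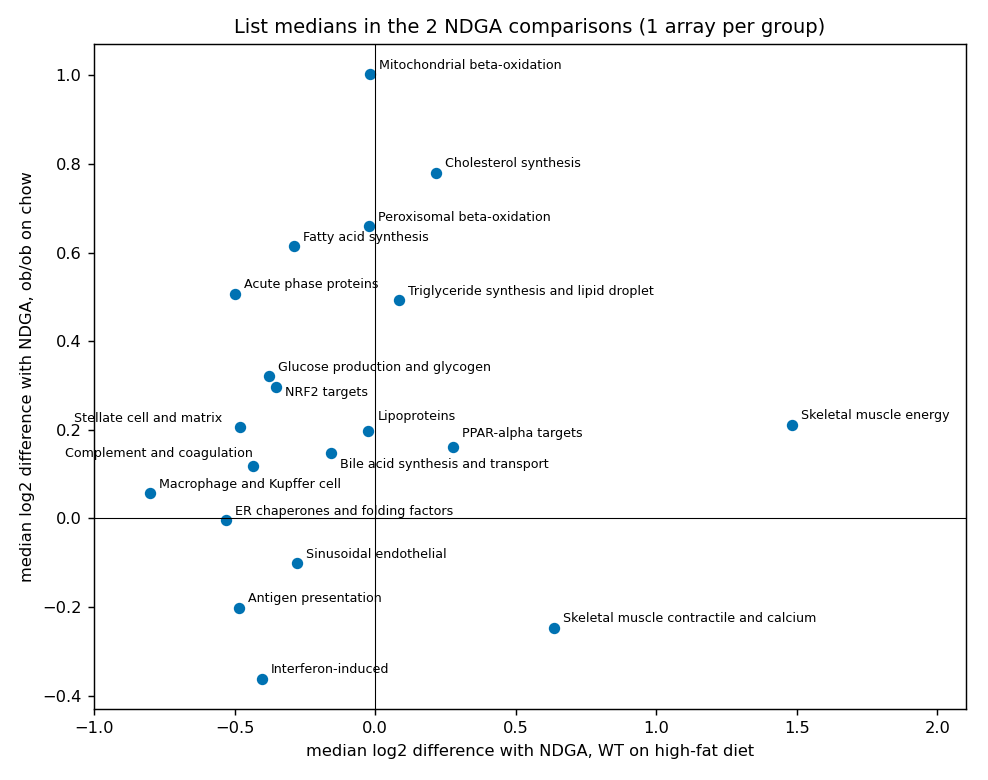
Each point is a gene list, placed by its median log2 difference with NDGA in WT on high-fat diet (horizontal) and in ob/ob on chow (vertical), over the members expressed in each comparison; 1 array per group, no error. Macrophage genes are at -0.80 in WT and 0.06 in ob/ob, and mitochondrial beta-oxidation at -0.02 and 1.00.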

How the data were processed

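Liver RNA was labelled with Cy5 and hybridised to Phalanx Mouse OneArray slides, 1 array per group, per the labels. The deposited values have the range of linear intensities, from below 0 to a scanner limit; how the authors scanned, corrected and scaled them is not stated in the labels. Deposited intensity medians ran from 38.1 to 71.0, and 16 to 60 probes per array were saturated (at or above 65000). The number of arrays limits the precision.

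Of 29922 probes, 21020 had 1 gene symbol in the platform annotation, 0 had several and 8902 had none; 17558 symbols were current in the RefSeq table (GRCm38.p6), 3410 were updated and 52 kept. The 5 arrays were quantile normalized, and log2(value + 50) was taken, which understates folds of dim genes. With 1 array per group there was no test, and list medians stand beside that of all expressed genes. The members and the 41 gene lists (1049 entries) were chosen with earlier results of these data known. Named genes are the 15 highest and lowest, list members at least 2-fold apart or among the next 6 of their list, defining members, Ppara, Lep, and genes 2-fold apart in both NDGA comparisons; any others are marked as picked on their values. A fold on a probe saturated on 1 array is a bound, with the saturated probe at its value.

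Alternatives were no normalization, a common median, loess (span 0.3), an offset of 16, dropping the filter, raising it to the 75th percentile or above the 90th percentile of olfactory receptor genes, the mean of probes, and no saturated probes. Leaving out muscle genes, and the rescaled counts over both NDGA comparisons, were added after seeing the data. The quantile and loess steps were also run on simulated arrays built from the high-fat array. Only bright genes were changed there and saturation was not simulated, so those runs do not bear on dim or saturated genes. Python 3.11.15, numpy 2.4.6, pandas 2.3.3, statsmodels 0.14.6 and matplotlib 3.10.9 were used.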

Additional observations from a re-analysis of the deposited data

Results flagged for a closer look

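Some values went opposite ways with NDGA in WT mice on high-fat diet and in ob/ob mice on chow. These differences were not tested, since each group has 1 array, and genotype and diet differ at once.

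Of the 126 genes at least 2-fold lower in WT among the 8069 expressed in both comparisons, 40 were at least 2-fold higher in ob/ob. That is 31.7% of those lower in WT and 7.50% of those higher in ob/ob, beside 6.61% of all 8069 genes higher in ob/ob. Without normalization it was 55 of 89 (61.8%), beside 32.0% of all genes higher in ob/ob, and with a common median 87 of 239 (36.4%), beside 6.69%. Of the 40, 12 belong to the gene lists: Acly, Adgre1, Anxa2, C9, Col4a1, Cyp2d9, Gstm3, Krt18, Lcn2, Mpeg1, Pdia4 and Srxn1. Pdia4 was at -1.20 in WT and 1.64 in ob/ob, and Lcn2 at -2.48 and 1.12.

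In the other direction, 3 of the 61 genes at least 2-fold higher in WT were among the 38 at least 2-fold lower in ob/ob, namely Nwd1, Rtn4rl2 and Tesc, named after their values were seen. There were 0 without normalization and 1 with a common median.

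The median of the acute phase list was -0.50 in WT and 0.51 in ob/ob. Itih3 was at -0.90 and 1.38, and Cp at -0.99 and 1.67.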

How the results depend on the processing

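No paired analysis was possible because each group has 1 array, and no replicate could be left out. Scaled to a common median, the arrays gave 48 higher and 244 lower genes; a 75th percentile filter left 46 higher. The median of the skeletal muscle energy list relative to all genes, 1.52, was 0.55 without a filter, 0.78 with the 75th percentile filter (4 genes), 0.79 with the olfactory receptor filter and 0.79 with the mean of probes. The last is an average over dimmer probes, and the filters change which genes are counted; no further cause was tested. The other 151 alternative values of these counts and of the main list medians (relative to all genes) stayed within 1.5 times the count or within the SD between probes of 0.34, and no median beyond that SD changed sign. The chemokine median, -0.47 relative to all genes, was -0.12 without a filter. Of 70 list members at least 2-fold apart, 7 were under 2-fold without normalization (Acly, Adgre1, Asgr2, Ccnd1, Cd68, Isg15 and Tfrc), 4 with a common median (Cidea, Cyp4a14, Oxct1 and Pltp), 5 with the mean of probes (Ccnd1, Cd68, Csf1r, Eno3 and Srxn1), and 0 with loess or the offset of 16. Genes near background and saturated probes limit what could be measured: 15 expressed genes were saturated on both arrays.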

Other observations

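Other gene groups held few differences. Of 34 expressed oxidative phosphorylation genes 0 passed 2-fold (median -0.02), and of 31 genes of amino acid breakdown and the urea cycle 0 did (median -0.12). Of 13 expressed cell cycle genes 2 were at least 2-fold lower, Mcm6, of the replication helicase (-1.35), and Ccnd1, the cyclin D1 (-1.01). Of circadian clock genes 0 of 11 passed 2-fold, and of CAR and PXR targets 0 of 14. Of red cell markers, Alas2, the first enzyme of heme synthesis in red cells, was at -1.07 and the transferrin receptor Tfrc at -1.03, while Slc4a1 was at 0.72. Of bile duct markers, Spp1 (-1.27) and Krt18 (-1.11) were at least 2-fold lower, and Krt19 was at -0.21 and Sox9 at 0.20. Igfbp2, which binds insulin-like growth factors, read 2843, 1441, 2843, 529 and 542 on WT chow, WT high-fat, WT high-fat NDGA, ob/ob chow and ob/ob chow NDGA (0.96), at its chow level with NDGA.

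Several genes read close to their lean chow level on the high-fat NDGA array, but all such statements share the high-fat array with the difference itself, so the return toward chow is a description of 3 arrays.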
